A study of Homo sapiens with 6 samples.

Results

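The 10 genes described here are the core of the NF-κB pathway as it is read in RNA: the 5 Rel family subunits NFKB1, NFKB2, REL, RELA and RELB, and 5 inhibitors and feedback genes, NFKBIA, NFKBIE, NFKBIZ, TNFAIP3 and BIRC3. They were taken by symbol from the 59008 gene symbols of the expression table, and each of the 10 was found and followed through all 6 libraries. All 10 had a mean of at least 1 TPM (transcripts per 1000000 transcripts, a level that accounts for transcript length), as 14988 symbols did.

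RNA was sequenced from Hey and SKOV3, both established human ovarian cancer cell lines, in 3 states. Parental cells were untreated. Polyploid giant cancer cells (PGCCs) had been exposed to 500 nM paclitaxel, a drug that stabilizes microtubules, for 16 h and had then recovered without it. The treatment labels give 3 days of recovery for both PGCC libraries, while the title of the SKOV3 library names day 7. Daughter cells had the same exposure and 30 days of recovery, and each daughter library is titled as clone 1, so it stands for 1 clone of its line. Hey was grown in MEM Eagle and SKOV3 in RPMI-1640 medium, so line and medium cannot be told apart. Each condition is 1 library, so no value carries a replicate error, a difference between 2 libraries has no test, and fewer cells of a kind and less RNA per cell cannot be told apart. TPM values hold no read counts, and the depth behind each gene is unknown.

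NF-κB is a family of dimeric transcription factors built from the Rel subunits. In resting cells inhibitors of the IκB group hold the dimers in the cytoplasm, and signals from cytokine receptors, damage or stress reach the IKK kinases, which mark the IκB proteins for destruction and free the dimers to enter the nucleus. Several of the genes that NF-κB switches on encode its own inhibitors: IκBα (NFKBIA) and IκBε (NFKBIE) retain the dimers again, the deubiquitinase encoded by TNFAIP3 shuts off the receptor complexes, and the ubiquitin ligase encoded by BIRC3 acts in those same complexes and restrains the kinase of the noncanonical branch. Transcripts of these feedback genes are therefore commonly read as a record of recent NF-κB activity, and NFKB1, NFKB2, REL and RELB are themselves known as NF-κB target genes. These are statements about the pathway and were not measured in these libraries.

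The promoters are shown first because NF-κB binds DNA at short sites of a recognisable form, and these genes are known for carrying them. RefSeq promoter windows on GRCh38.p14, running from 250 bases before to 50 after an annotated start, were present for 8 of the 10 genes as 13 windows. Both strands were searched for the κB consensus, which spans 10 bases. It was found in 7 of the 8 genes and in 9 of the 13 windows, against 11.3% of all 35116 windows, and 17.3% of the 10493 tested genes that have a window. RELA was the gene without a match in either of its windows. The 4 inhibitors and feedback genes that have a window (NFKBIA, NFKBIZ, TNFAIP3 and BIRC3) all held one. Some of these matches are palindromic or overlapping and therefore count on both strands. A match is a description of letters and was not shown to be bound here.

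The sequences below are the 250 bases before the start of 3 feedback genes on which the expression results turn, written 5′ to 3′ on the strand of the gene with the matches to the consensus in capitals. The NFKBIA stretch lies at chr14:35404750-35404999 on the minus strand, that of TNFAIP3 at chr6:137867009-137867258 on the plus strand, and that of BIRC3 at chr11:102317234-102317483 on the plus strand.
NFKBIA: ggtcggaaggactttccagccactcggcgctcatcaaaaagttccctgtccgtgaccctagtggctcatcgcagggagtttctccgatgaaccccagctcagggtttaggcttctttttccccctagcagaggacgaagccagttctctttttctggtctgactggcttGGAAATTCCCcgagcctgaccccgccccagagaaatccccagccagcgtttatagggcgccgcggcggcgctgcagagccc
TNFAIP3: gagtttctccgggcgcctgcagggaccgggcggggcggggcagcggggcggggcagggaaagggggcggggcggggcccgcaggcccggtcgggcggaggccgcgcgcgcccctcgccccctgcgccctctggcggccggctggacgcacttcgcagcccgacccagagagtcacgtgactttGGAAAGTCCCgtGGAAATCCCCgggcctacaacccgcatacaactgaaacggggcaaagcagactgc
BIRC3: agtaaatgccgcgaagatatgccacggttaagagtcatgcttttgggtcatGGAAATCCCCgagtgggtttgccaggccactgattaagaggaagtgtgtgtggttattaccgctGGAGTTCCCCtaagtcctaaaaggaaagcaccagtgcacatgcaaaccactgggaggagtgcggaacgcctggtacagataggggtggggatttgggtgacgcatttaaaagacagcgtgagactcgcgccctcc
In all 3 the match reads on the opposite strand, and so it appears above as the reverse complement. The NFKBIA match begins 81 bases before the start, the TNFAIP3 matches 67 and 55 bases before it with a gap between them, and the BIRC3 matches 199 and 135 bases before it.

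Shorter stretches show the matches of 4 further genes, each of which lies on the plus strand: NFKB1 at chr4:102501295-102501334, REL at chr2:60881512-60881552, the first of the NFKBIZ windows at chr3:101827752-101827791 and the second of the NFKB2 windows at chr10:102394456-102394524.
NFKB1: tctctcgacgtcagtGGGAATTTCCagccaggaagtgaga
REL: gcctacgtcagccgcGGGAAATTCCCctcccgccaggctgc
NFKBIZ: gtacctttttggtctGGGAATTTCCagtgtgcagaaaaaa
NFKB2: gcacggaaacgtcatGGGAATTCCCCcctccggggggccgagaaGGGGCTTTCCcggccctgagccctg
Read on one strand or the other, the same decamer, GGGAATTTCC, occurs in NFKB1, REL, NFKBIZ and NFKBIA, and it is present in 51 of all windows (0.145%). GGGGATTTCC is shared by TNFAIP3 and BIRC3 and is present in 0.111% of all windows, and GGGACTTTCC by TNFAIP3 and another NFKB2 window, with 0.191% of all windows. These exact decamers were picked after the matches had been seen.

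**Figure D1:**
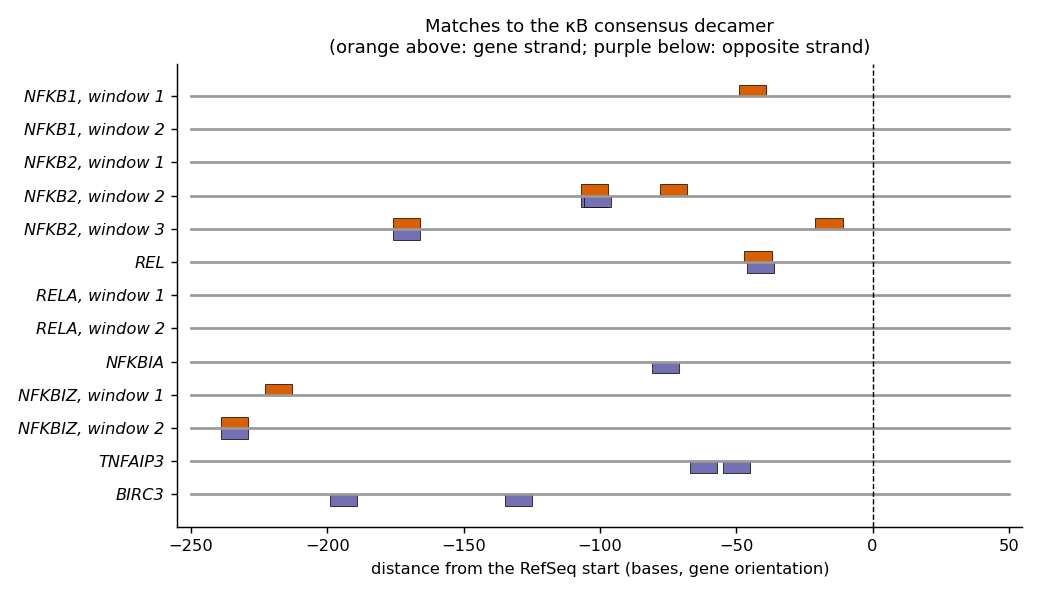
Position of the κB consensus matches in the 13 RefSeq promoter windows of 8 genes, in bases from the annotated start (dashed line), with matches on the gene's strand drawn above the line and those on the opposite strand below it. Matches lie in 9 windows, all upstream of the start, and none lies in either RELA window.

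Each of the 5 inhibitors and feedback genes had its highest level in PGCCs in Hey and in daughter cells in SKOV3. In PGCCs compared with daughter cells, NFKBIA, NFKBIZ and BIRC3 were called at 2-fold in opposite directions in the lines, whereas NFKBIE and TNFAIP3 were called in Hey alone and stood at -0.67 and -0.38 in SKOV3 (values below). The difference between the lines was not tested. Summed over the 5 genes, the level in Hey was 118 TPM in parental cells, 344 TPM in PGCCs and 70.4 TPM in daughter cells, and in SKOV3 it was 157, 148 and 451 TPM in that order. The summed level of the 5 subunits moved over a narrower range, from 80.6 TPM in Hey parental cells to 110 TPM in PGCCs and 104 TPM in daughter cells, and in SKOV3 from 102 to 153 and 199 TPM. Per unit of subunit transcript, the inhibitors and feedback genes stood at 1.46, 3.14 and 0.680 in Hey parental cells, PGCCs and daughter cells, and at 1.54, 0.969 and 2.27 in SKOV3. The parental cells of the lines were thus near each other on this ratio, whereas the order of the PGCCs and daughter cells was exchanged. The sums and ratios are not corrected for GC content, with which the SKOV3 PGCC values moved (below). With the GC and length trend removed, RELA in SKOV3 PGCCs against parental cells went from 0.90 to 0.25 and NFKB2 from 1.47 to 0.65.

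**Figure D2:**
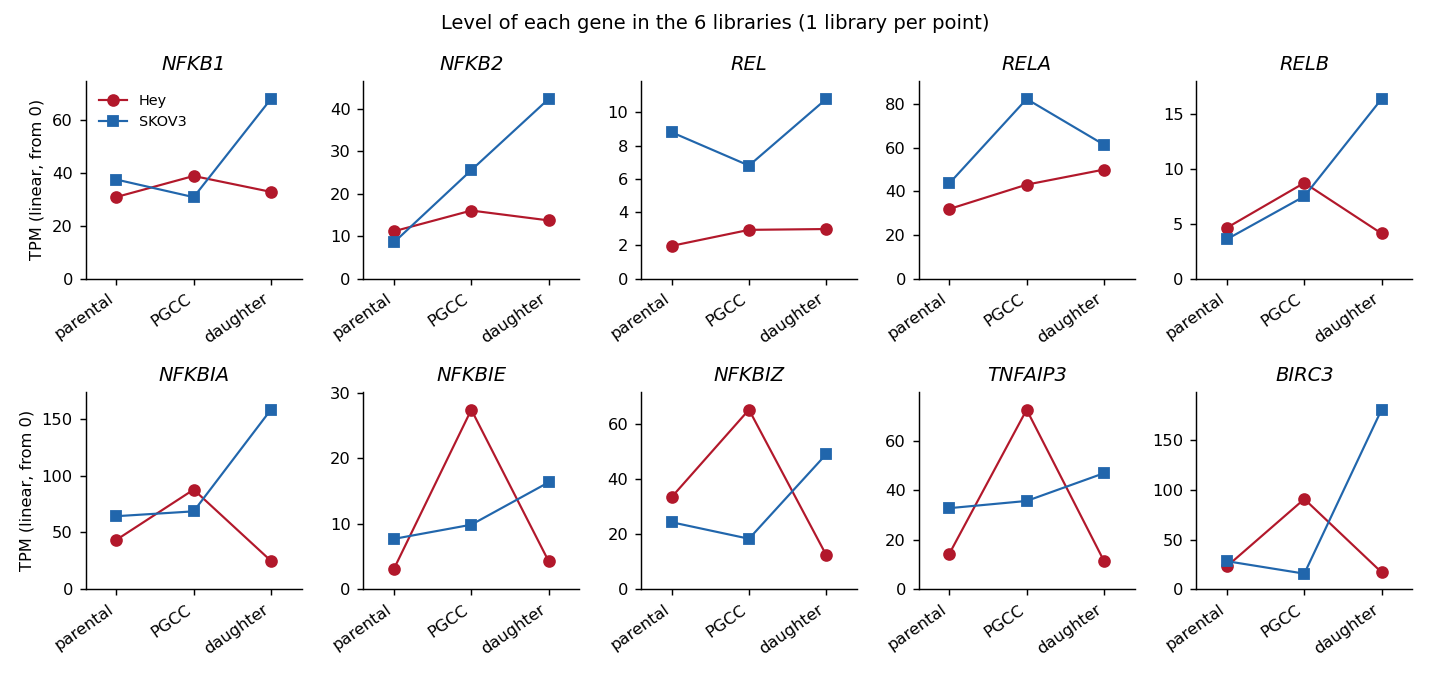
TPM of each of the 10 genes (linear axis from 0, scaled per gene) in parental, PGCC and daughter libraries of Hey (circles) and SKOV3 (squares), 1 library per point. For the 5 genes of the lower row the Hey line peaks in PGCCs and the SKOV3 line ends highest in daughter cells, as for BIRC3 with 90.9 TPM in Hey PGCCs and 181 TPM in SKOV3 daughter cells.

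In Hey PGCCs 3 of the 10 genes were upregulated at least 2-fold compared with parental cells, against 7.67% of all tested genes, and 0 of 10 were downregulated, against 5.22%. Differences are given on the scale of log2(TPM + 1), on which a call needs a difference of at least 1. Calls and 2-fold refer to this scale throughout. This scale understates folds, most of all those of low genes. All 3 belonged to the inhibitors and feedback genes, and the median difference was 1.92 for the 5 inhibitors and feedback genes, 0.42 for the 5 subunits and 0 for all tested genes.

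NFKBIE, the gene of IκBε, measured 3.16 TPM in Hey parental cells, 27.4 TPM in PGCCs and 4.31 TPM in daughter cells. Its difference between PGCCs and parental cells, 2.77, ranked 135 from the top of 14988 genes. TNFAIP3 measured 14.4, 72.5 and 11.5 TPM in parental cells, PGCCs and daughter cells, a difference of 2.26 between PGCCs and parental cells. BIRC3 measured 23.3, 90.9 and 17.1 TPM, a difference of 1.92, which made it the most abundant of the 10 transcripts in Hey PGCCs after being the fifth in parental cells. In each of these 3 genes the PGCC library stood alone, with parental and daughter cells within a difference of 0.42 of each other.

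NFKBIA, encoding the classical inhibitor IκBα, came just short of the call, with 43.5 TPM in Hey parental cells, 87.7 TPM in PGCCs and 25.0 TPM in daughter cells and a difference of 0.995 between PGCCs and parental cells. NFKBIZ, which encodes the nuclear IκBζ, a cofactor for a subset of inflammatory genes, measured 33.6, 65.3 and 12.5 TPM, and its difference between PGCCs and parental cells was 0.94. In TPM alone NFKBIA was 2.02 times and NFKBIZ 1.95 times its parental level. Both passed the call once the mitochondrial genes were left out and the remaining TPM rescaled, NFKBIA with 1.14 and NFKBIZ with 1.09. This raised the count of upregulated genes from 3 to 5. Mitochondrial genes made up 2.64% of the summed TPM in the parental library and 12.3% in that of the PGCCs, and without them the median of all tested genes was 0.11.

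The Rel subunits were less variable in Hey, and none passed the call. RELA, which carries the main transactivation domain of the canonical dimer, measured 31.9, 43.0 and 49.9 TPM in parental cells, PGCCs and daughter cells, with a difference of 0.42 between PGCCs and parental cells. NFKB1, whose product is processed to its dimer partner, measured 30.9, 38.9 and 32.9 TPM, a difference of 0.32. NFKB2 and RELB, the pair of the noncanonical branch, measured 11.1, 16.0 and 13.7 TPM and 4.64, 8.71 and 4.10 TPM, with differences of 0.49 and 0.78. REL was the lowest of the 10 in all 3 Hey libraries, with 1.97, 2.93 and 2.98 TPM. RELA and NFKB1 together made up 74.8% to 79.9% of the subunit transcripts in the 3 Hey libraries.

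Compared with daughter cells, Hey PGCCs had all 5 inhibitors and feedback genes higher by at least 2-fold, with 5 of the 10 genes called against 8.13% of all tested genes, and 0 of 10 lower, against 9.95%. The differences were 1.77 for NFKBIA, 2.42 for NFKBIE, 2.30 for NFKBIZ, 2.56 for TNFAIP3 and 2.34 for BIRC3, whereas those of the subunits ran from -0.21 for RELA to 0.93 for RELB. Between Hey daughter and parental cells 0 of 10 genes were higher, against 6.31% of tested genes, and 1 was lower, against 3.73%: NFKBIZ, with a difference of -1.36. NFKBIA, at -0.77, did not pass the call. The 2 comparisons that include the PGCCs share that library.

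**Figure D3:**
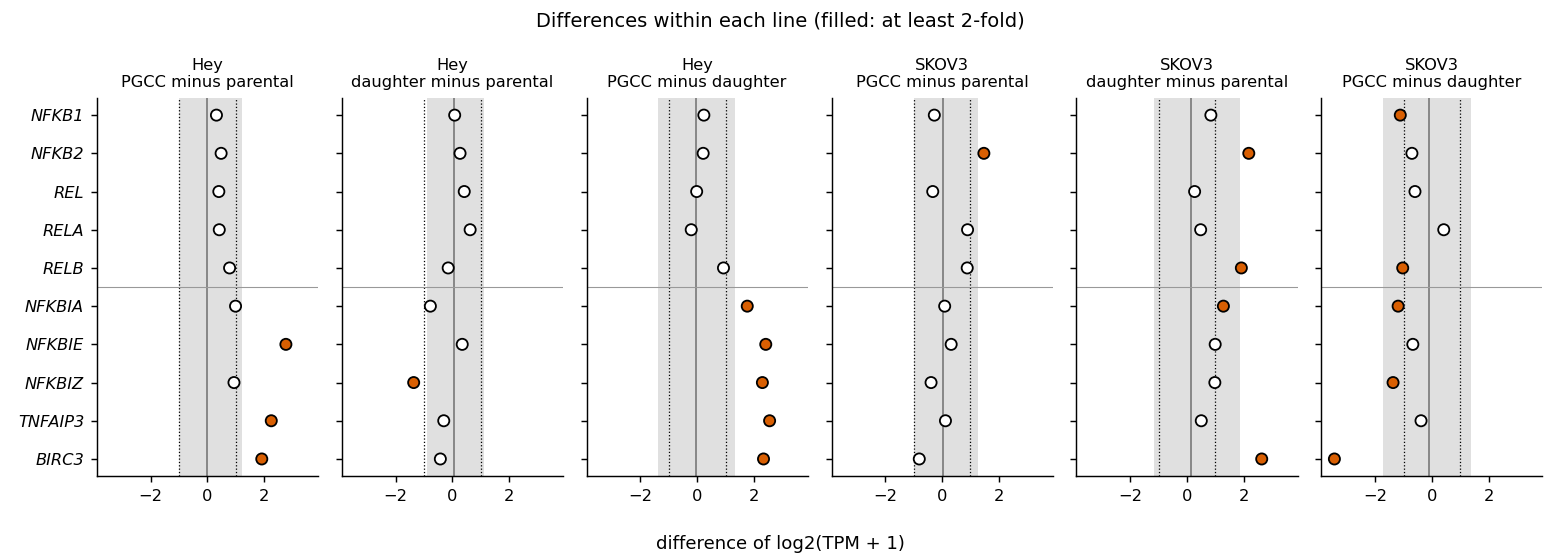
Difference of log2(TPM + 1) of each gene in the 6 comparisons within a line, with filled points at least 2-fold, dotted lines at 2-fold, the grey band from the percentile 5 to percentile 95 of all 14988 tested genes and a grey line at their median. In Hey the 5 inhibitors and feedback genes below the dividing line lie to the right in PGCC minus daughter, and in SKOV3 PGCC minus daughter BIRC3 lies at -3.44.

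In SKOV3 PGCCs, NFKB2 was the only one of the 10 genes upregulated at least 2-fold compared with parental cells, against 9.94% of all tested genes, and 0 of 10 were downregulated, against 4.96%. A count of 1 in 10 is close to the share of all tested genes. NFKB2 measured 8.55 TPM in parental cells, 25.5 TPM in PGCCs and 42.3 TPM in daughter cells, a difference of 1.47 between PGCCs and parental cells. RELA measured 43.6, 82.2 and 61.3 TPM, with a difference of 0.90, and RELB 3.59, 7.49 and 16.3 TPM, with a difference of 0.89. In TPM alone RELB in PGCCs was 2.09 times its parental level. The feedback genes stayed within 2-fold of parental cells: their differences were 0.091 for NFKBIA, 0.32 for NFKBIE, -0.39 for NFKBIZ, 0.12 for TNFAIP3 and -0.81 for BIRC3.

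These SKOV3 PGCC differences moved with the base composition of the transcript. Across 13468 tested genes with a GENCODE annotation, the difference between SKOV3 PGCCs and parental cells had a Spearman correlation of 0.72 with GC content, against -0.044 in Hey. Among the 10 genes the 3 largest values belonged to transcripts rich in GC, NFKB2 with 61.2%, RELA with 58.6% and RELB with 64.9%, and the lowest to BIRC3 with 35.8%, while NFKBIE, with 60.4%, was at 0.32. With the trend in GC and length taken out over all genes, the difference of NFKB2 was 0.65, that of RELA 0.25, that of RELB -0.084 and that of BIRC3 -0.26, so 0 of 10 genes passed 2-fold. In Hey the same step left NFKBIE at 2.85, TNFAIP3 at 2.33 and BIRC3 at 2.01.

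**Figure D4:**
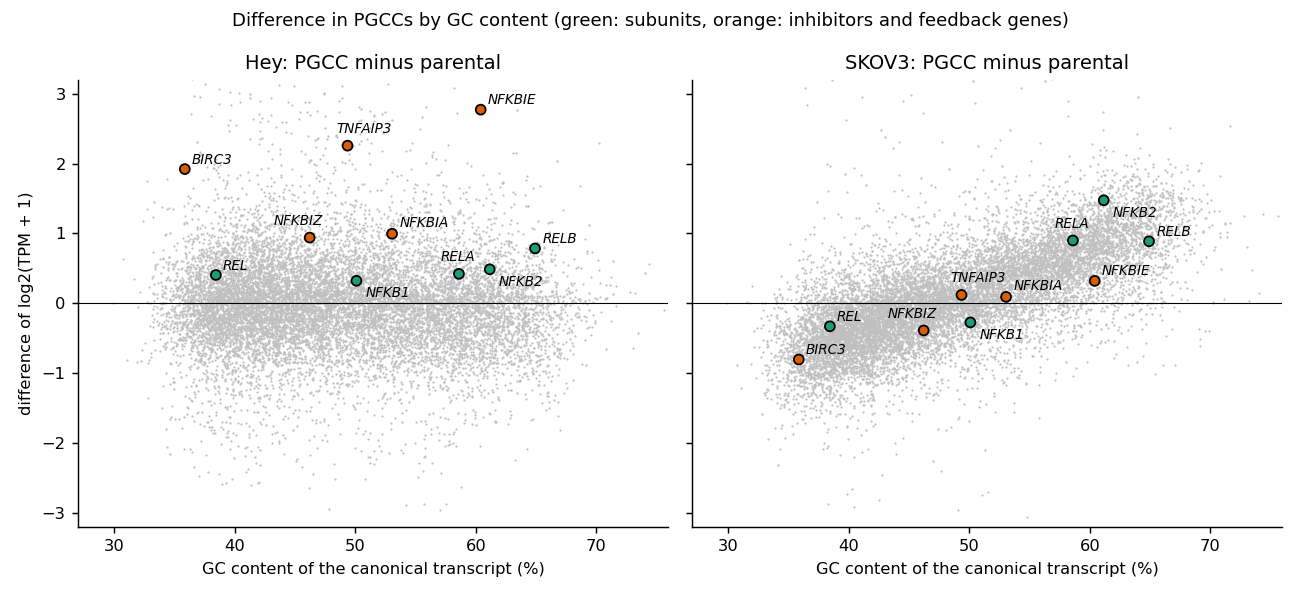
Difference of log2(TPM + 1) between PGCCs and parental cells against the GC content (percent) of the canonical transcript for 13468 genes (grey) and the 10 genes of the pathway, in Hey (left) and SKOV3 (right); 89 genes in Hey and 45 in SKOV3 lie beyond the vertical limits of 3.2 and are not drawn. The SKOV3 cloud climbs from left to right and the 10 genes lie within it, while in Hey NFKBIE, TNFAIP3 and BIRC3 stand above a level cloud.

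The SKOV3 daughter cells held the highest level of 9 of the 10 genes among the SKOV3 libraries, RELA being the exception. Compared with parental cells 4 of 10 were upregulated at least 2-fold, against 15.1% of all tested genes, and 0 were downregulated, against 6.34%. The median difference of the 10 genes was 0.99, that of all tested genes 0.15. With a pseudocount of 0.1, and also without the mitochondrial genes, 6 of 10 were upregulated, NFKBIE and NFKBIZ being added. The median of all tested genes was then 0.17 and 0.23.

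BIRC3 measured 28.3 TPM in SKOV3 parental cells, 15.7 TPM in PGCCs and 181 TPM in daughter cells, a difference of 2.64 between daughter and parental cells, and it was the most abundant of the 10 transcripts in the daughter cells. NFKB2 had a difference of 2.18 and RELB one of 1.92 from the levels given above. NFKBIA measured 64.3, 68.5 and 158 TPM, a difference of 1.28. The other feedback genes did not pass the call. NFKBIE measured 7.69, 9.86 and 16.3 TPM with a difference of 0.99, and NFKBIZ 24.4, 18.4 and 49.1 TPM with 0.98. In TPM alone NFKBIE in daughter cells was 2.12 times and NFKBIZ 2.02 times its parental level. TNFAIP3 measured 32.7, 35.6 and 46.8 TPM with a difference of 0.50. NFKB1, with 37.6, 30.9 and 68.1 TPM, had a difference of 0.84, and REL, with 8.81, 6.80 and 10.8 TPM, one of 0.27. In SKOV3 the share of RELA and NFKB1 among the subunit transcripts went from 79.5% in parental cells to 74.0% in PGCCs and 65.1% in daughter cells, and the ratio of NFKB2 to NFKB1 from 0.227 to 0.826 and 0.620.

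BIRC3 lies on chromosome 11 beside BIRC2, which encodes a closely related ubiquitin ligase, and the genes around it were looked at after its value had been seen. BIRC2 measured 134 TPM in SKOV3 parental cells, 80.3 TPM in PGCCs and 266 TPM in daughter cells, with a difference of 0.99 between daughter and parental cells. Of the 11 tested neighbours within 1 Mb, 0 were upregulated at least 2-fold in SKOV3 daughter cells, against 15.1% of all tested genes. Their median difference was -0.26. MMP1 and MMP7, neighbours that encode secreted proteases, had differences of -8.01 and -4.18. MMP10, TRPC6 and DCUN1D5 were also lower by at least 2-fold, with -3.22, -1.25 and -1.14, as were 6.34% of all tested genes. In Hey PGCCs compared with parental cells, where BIRC3 was also called, 3 of the 11 neighbours were upregulated, against 7.67% of all tested genes. These were MMP1 with 5.36, MMP3 with 5.10 and MMP10 with 2.20, and the median difference of the 11 neighbours was 0.19.

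Between SKOV3 PGCCs and daughter cells, 5 of the 10 genes were lower in PGCCs by at least 2-fold, against 14.6% of all tested genes, and 0 were higher, against 9.25%. The differences were -3.44 for BIRC3, -1.37 for NFKBIZ, -1.19 for NFKBIA, -1.12 for NFKB1 and -1.03 for RELB. BIRC3 ranked 138 from the bottom of the 14988 tested genes. This comparison also moved with GC content, with a Spearman correlation of 0.46, and with the GC and length trend removed BIRC3 was at -2.76, NFKBIZ at -1.08, NFKBIA at -1.30, RELB at -1.65 and NFKB1 at -0.97. The mitochondrial share was 7.37% in PGCCs and 14.8% in daughter cells.

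Set side by side in the same state, the lines differed in parental cells by at least 2-fold in 3 of the 10 genes, all lower in Hey: REL with a difference of -1.72, TNFAIP3 with -1.13 and NFKBIE with -1.06. The shares of all tested genes were 24.2% lower and 11.5% higher in Hey, with 0 of 10 higher. A count of 3 in 10 is near the share lower in Hey. TNFAIP3 and NFKBIE lost the call with median ratios, quantile normalization or the GC and length trend removed, and REL alone stayed lower. With the trend removed, 16.3% of all genes were lower in Hey. In PGCCs 4 of 10 were higher in Hey, against 13.4%, all of them inhibitors or feedback genes: BIRC3 with 2.46, NFKBIZ with 1.78, NFKBIE with 1.39 and TNFAIP3 with 1.00, while 0 were lower, against 29.6%. The PGCC comparison moved with GC content, with a Spearman correlation of -0.37. With the GC and length trend removed, 5 were higher, the subunit RELB being added at 1.43, and 1 was lower, REL at -1.07. The shares of all genes were then 17.3% and 17%. In daughter cells 9 of 10 were lower in Hey, against 29.5%, and 0 were higher, against 12.3%, with differences from -1.03 for NFKB1 to -3.33 for BIRC3. RELA was the 1 gene within 2-fold, at -0.29. The median of all tested genes lay between -0.29 and -0.38 in these comparisons.

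With the lines as the repeats of each state, limma on log2(TPM + 1) gave none of the 10 genes an adjusted p under 0.05 in any of the 3 comparisons of states. Of all tested genes 0.00667% were higher and 0.0133% lower at that threshold in PGCCs against parental cells, 0% higher and 0.0133% lower in daughter against parental cells, and 0% in either direction in PGCCs against daughter cells. This fit has 2 residual degrees of freedom, and its spread is the disagreement between the lines. For each gene limma draws that spread toward the trend over all tested genes, so the SE and p are not of the gene alone. The nearest in PGCCs against parental cells was NFKBIE, with a mean difference of 1.55 ± 0.721 (SE, higher in both lines) and an adjusted p of 1 in limma. In SKOV3 its difference was 0.32, and -0.44 with the GC and length trend removed, so the lines then differed in sign. In daughter against parental cells NFKB2 had a mean difference of 1.23 ± 0.514 (SE; higher in both lines) and an adjusted limma p of 1. It was the only one of the 10 with an unadjusted p under 0.05 in any comparison. In PGCCs against daughter cells the smallest adjusted p of the 10 was 0.912 by limma, for TNFAIP3. Over all 14988 genes, 3, 2 and 0 had an adjusted p under 0.05 in these comparisons and 409, 508 and 758 an unadjusted p under 0.05.

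The other genes of the pathway were taken by role, and their counts are read against the shares of all tested genes given above. Among the 11 IKK subunits and upstream kinases, 0 were called between Hey PGCCs and parental cells, with a median of -0.15. In Hey the largest differences of this list were 0.96 for TAB3, an adaptor of the kinase TAK1, and -0.70 for IKBKB, the catalytic subunit IKKβ. In SKOV3 PGCCs 2 of 11 were upregulated compared with parental cells, against 9.94% of all tested genes: MAP3K14, the kinase of the noncanonical branch, which measured 12.7 TPM in parental cells, 34.4 TPM in PGCCs and 13.7 TPM in daughter cells, and TAB1, with 6.13, 14.0 and 13.0 TPM. In Hey MAP3K14 was highest in daughter cells, with 5.50, 4.87 and 19.8 TPM, so that the difference between PGCCs and daughter cells was -1.82 in Hey and 1.27 in SKOV3.

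Of the 13 adaptors and ubiquitin ligases, 1 was upregulated in Hey PGCCs compared with parental cells, TRAF1, itself known as an NF-κB target, with 0.574 TPM in parental cells, 7.86 TPM in PGCCs and 1.27 TPM in daughter cells. A count of 1 in 13 is near the 7.67% of all tested genes. RNF31 had the next largest difference in Hey, -0.89. In SKOV3 PGCCs 3 of 13 were upregulated, against 9.94%: TRAF2, IRAK1 and SHARPIN, the last with a difference of 1.42. IRAK1, a kinase of the interleukin-1 and Toll-like receptor pathways, had a difference between PGCCs and daughter cells of -1.17 in Hey and 1.18 in SKOV3.

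Of the 11 tested negative regulators outside the 10 genes, 3 were upregulated in PGCCs of each line compared with parental cells, against 7.67% of all tested genes in Hey and 9.94% in SKOV3, and 0 were downregulated. TNIP1, which encodes a partner protein of the TNFAIP3 product, was shared, with 75.0, 152 and 79.3 TPM in Hey parental cells, PGCCs and daughter cells and 47.4, 102 and 119 TPM in SKOV3, that is differences of 1.01 and 1.08 between PGCCs and parental cells. In Hey the largest of the list were TNIP3 with 2.47 and ZC3H12A with 1.21, and in SKOV3 TNIP2 with 1.13. CYLD, a deubiquitinase that limits the pathway, was higher in PGCCs than in daughter cells by 1.42 in Hey and lower by at least 2-fold in SKOV3, with -1.13. Of the 3 other IκB family genes, BCL3 was higher in PGCCs than in daughter cells in both lines, with 1.54 in Hey and 1.37 in SKOV3. The SKOV3 PGCC counts of these lists moved with GC content: with the GC and length trend removed, 0 of the 11 kinases, 0 of the 13 adaptors and ubiquitin ligases, 0 of the 11 negative regulators and 0 of the 3 other IκB genes were upregulated compared with parental cells, and 2.24% of all genes with an annotation. In Hey PGCCs the same step left 0, 1, 3 and 0, with 6.10% of all genes. In SKOV3 PGCCs against daughter cells it left 0 of the 11 kinases, 11 negative regulators and 3 other IκB genes called in either direction. Of the 13 adaptors and ubiquitin ligases, 0 were higher and 2 lower, against 7.42% and 10.4% of all genes. The SKOV3 calls of BCL3, CYLD, MAP3K14 and IRAK1 in that comparison thus did not remain.

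Among 21 tested target genes outside the 10, 16 were upregulated in Hey PGCCs compared with parental cells, against 7.67% of all tested genes, with a median difference of 1.88. This list was chosen with earlier results of these data known, so an excess over the share of all genes is partly set by that choice. In Hey the largest differences were 5.35 for CSF2 and 4.54 for CXCL8. In SKOV3 PGCCs 4 of 21 were upregulated, against 9.94%: TNFAIP2, ICAM1, IL6 and SOD2, with differences of 1.74, 1.44, 1.37 and 1.12, and all 4 were also upregulated in Hey. Once GC and length were taken out, these counts were 15 in Hey PGCCs and 3 in SKOV3 PGCCs. In SKOV3 daughter cells 10 of 21 were upregulated and 4 downregulated compared with parental cells, against 15.1% and 6.34%, with a median of 0.87, whereas in Hey daughter cells 0 were upregulated and 4 were downregulated, against 6.31% and 3.73%. Compared with daughter cells, 7 of the 21 were called in opposite directions in the lines, higher in Hey PGCCs and lower in SKOV3 PGCCs: ICAM1, CXCL2, CXCL8, CCL20, PTGS2, BCL2A1 and CFLAR. Of all tested genes 1.71% were called in that way. With the GC and length trend removed, 6 of the 21 were lower and 3 higher in SKOV3 PGCCs than in daughter cells. The shares of all genes were then 10.4% and 7.42%. The SKOV3 calls of the 7 genes thus did not all remain. IL1B and IER3 were the 2 called higher in PGCCs of both lines in that comparison, as were 1.07% of all tested genes.

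The Hey PGCC and SKOV3 daughter libraries, each set against its own parental cells, share no library. They were paired after the inhibitors and feedback genes had been seen to be highest in them within each line. An overlap of these genes or of the target genes is thus partly set by that choice. Of all tested genes 226, or 1.51%, were upregulated at least 2-fold in both comparisons. They included 1 of the 10 genes, BIRC3, which is 1 of the 3 called in Hey PGCCs and 1 of the 4 called in SKOV3 daughter cells. Of the 21 target genes 9 were in both, out of 16 called in Hey PGCCs and 10 in SKOV3 daughter cells, and so was TNIP1. NFKBIA, NFKBIE and NFKBIZ came close, with 0.995 and 1.28 for NFKBIA, 2.77 and 0.99 for NFKBIE and 0.94 and 0.98 for NFKBIZ. NFKB2 and RELB were called in SKOV3 daughter cells alone, at 2.18 and 1.92 against 0.49 and 0.78 in Hey PGCCs, and TNFAIP3 was called in Hey PGCCs alone, at 2.26 against 0.50. Whether these differences between the lines exceed the spread of replicates was not tested.

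**Figure D5:**
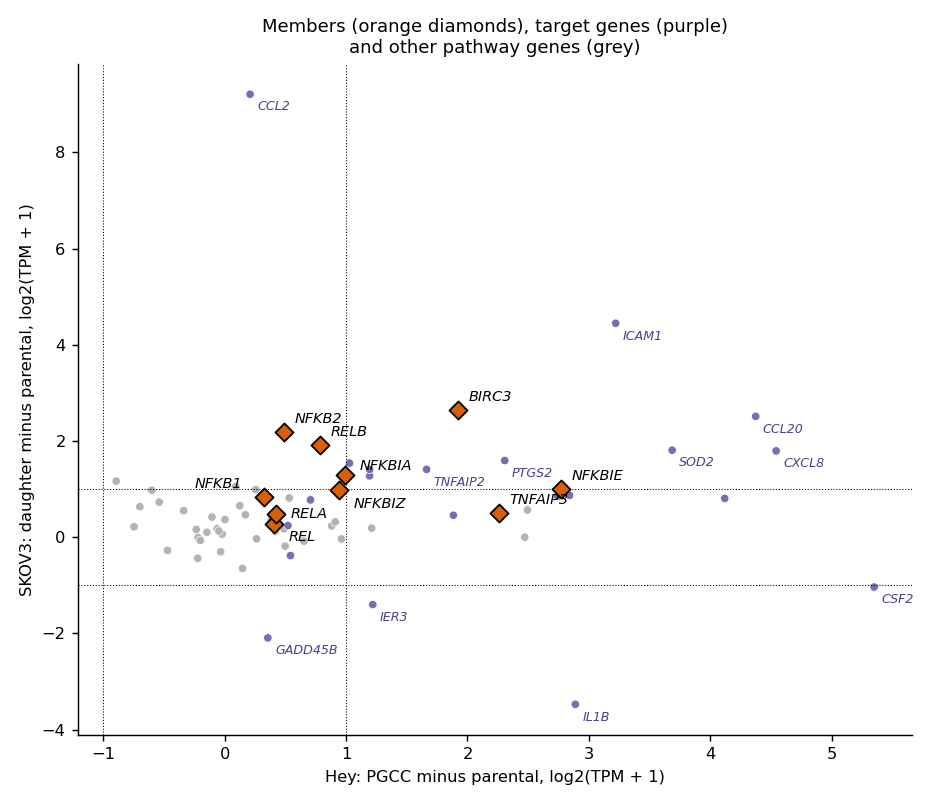
Difference of log2(TPM + 1) between Hey PGCCs and parental cells (horizontal) and between SKOV3 daughter and parental cells (vertical) for the 10 genes (diamonds), 21 target genes (purple) and the other tested pathway genes (grey), with dotted lines at 2-fold. BIRC3 lies past 2-fold on both axes, NFKBIE and NFKBIA lie on the border of one axis and NFKBIZ just inside both, and NFKB2 and RELB lie high on the vertical axis only.

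The lines were checked by markers over the same libraries. PAX8 measured 54.7 to 136 TPM and the summed epithelial markers 1036 to 3161 TPM, ERBB2 8.20 to 14.1 TPM in Hey and 1127 to 1778 TPM in SKOV3, a line known for its amplified ERBB2. The epithelial markers CDH1 and EPCAM did not exceed 1.43 TPM in Hey, and MUC16 did not exceed 1.59 TPM in any library. In SKOV3 EPCAM measured 68.8 TPM in parental cells, 43.6 TPM in PGCCs and 8.15 TPM in daughter cells. Of the other ovarian carcinoma markers, FOLR1 did not exceed 0.0578 TPM in Hey and measured 72.7, 132 and 3.04 TPM in SKOV3, MSLN measured 21.5, 23.3 and 0.386 TPM in Hey and 33.1, 46.1 and 1.85 TPM in SKOV3, and WT1 did not exceed 4.10 TPM. MSLN in both lines and FOLR1 and EPCAM in SKOV3 were lowest in daughter cells. Of 6 leukocyte markers 5 were below 1 TPM in every library, with PTPRC at most 0.425 TPM and CD3E at 0, and the sum of 45.9 to 69.8 TPM in Hey and 1.93 to 20.7 TPM in SKOV3 was nearly all CD68, except in SKOV3 daughter cells, where CD68 measured 0.840 TPM. The summed fibroblast markers were 0.223 to 3.54 TPM in Hey, highest in PGCCs, and 12.6 to 22.9 TPM in SKOV3, highest in daughter cells. CDH5, an endothelial marker, measured 33.2 to 48.5 TPM in Hey, while PECAM1 and VWF were below 1 TPM in every library. The part of such signals in the results was not tested.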

How the data were processed

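The 6 RNA-seq libraries cover 3 states of 2 cell lines, 1 library per condition. The authors ran fastp and salmon 0.14.1 against hg38 transcripts and deposited TPM values, 1 per gene symbol and library. The annotation release, the step from transcripts to symbols and salmon's bias options are not given in the sources used here. The columns sum to 911825 to 920497, below 1000000. TPM hold no counts, so no interval or depth per gene is given and no count model was run. Salmon divides reads among overlapping transcripts: by GENCODE release 44 exons, REL shares 5702 bases with ENSG00000267520 and NFKBIZ 194 bases with NXPE3 on the same strand, RELA, TNFAIP3 and BIRC3 share 95 to 126 bases with a gene on the opposite strand, and the other 5 genes share none.

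Differences were computed on log2(TPM + 1) for the 14988 symbols whose TPM averaged 1 or more, and a gene was called at a difference of at least 1 (2-fold). limma 3.58.1 in R 4.3.3 was fitted to all 6 libraries with terms for state and for line, an intensity trend in eBayes and Benjamini-Hochberg adjustment over 14988 genes. GC content and length are those of GENCODE canonical transcripts, and their trend was removed by lowess (fraction 0.3, 2 passes), which also centres the values. Promoter windows are from RefSeq (GRCh38.p14). Other steps used statsmodels 0.14.6, scipy 1.17.1, pandas 2.3.3 and numpy 2.4.6 in Python 3.11.15, and the scripts were tested on simulated data.

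All 10 genes are named. Of the other pathway lists, the text gives counts and names the genes called in both lines in a comparison and, per list and line, the 2 with the largest difference between PGCCs and parental cells; other names belong to small counts or were chosen after their values were seen. The 5 genes most like the mean of the 10 were ranked by Pearson r. The 10 genes and the lists were chosen with earlier results of these data known.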

Additional observations from a re-analysis of the deposited data

Results flagged for a closer look

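In 3 of the 10 genes the difference between PGCCs and daughter cells passed 2-fold in opposite directions in the lines: each was higher in PGCCs in Hey and lower in PGCCs in SKOV3. Of all 14988 tested genes 2.84% passed 2-fold in opposite directions in this comparison, 1.71% in the same order as these 3. For NFKBIA the difference was 1.77 in Hey and -1.19 in SKOV3, a gap of 2.96. For NFKBIZ it was 2.30 and -1.37, a gap of 3.67. For BIRC3 it was 2.34 and -3.44, a gap of 5.78, the largest of the 3. With 1 library per condition the difference between the lines was not tested. The signs were the same under every alternative run. The title of the SKOV3 PGCC library names day 7 and that of the Hey PGCC library day 3, although the treatment labels give 3 days for both, and each daughter library is 1 clone, so line, day and clone cannot be told apart.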

How the results depend on the processing

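The counts of the 10 genes were recomputed with a pseudocount of 0.1, no filter and a mean TPM of at least 5. Other runs used thresholds of 3-fold and 1.5-fold, division by median ratios, quantile normalization, no mitochondrial genes, and the GC and length trend removed. Of the recomputed counts 139 stayed within 1.5 times and 23 did not, and no called gene changed direction. The 18 counts with no filter and the 18 with a mean TPM of at least 5 are among the 139 and could not change. All 10 genes are kept either way, the lowest mean being 5.72 TPM for REL. Counts of 0 that stayed at 0 are also among the 139. At 1.5-fold the count went in Hey PGCCs against parental cells from 3 to 6 higher (17.1% of all tested genes), in Hey daughter against parental cells from 0 to 1 higher (17.2%) and from 1 to 2 lower (10.7%), in SKOV3 PGCCs against parental cells from 1 to 3 higher (22.9%) and from 0 to 1 lower (16.3%), in SKOV3 daughter against parental cells from 4 to 7 higher (28.1%), in SKOV3 PGCCs against daughter cells from 5 to 8 lower (28.0%), and in Hey against SKOV3 PGCCs from 0 to 3 lower (42.3%). At 3-fold it went from 1 to 0 lower in Hey daughter against parental cells (1.19% of all tested genes), from 1 to 0 higher in SKOV3 PGCCs against parental cells (2.01%), from 5 to 1 lower in SKOV3 PGCCs against daughter cells (6.22%), from 3 to 1 lower in Hey against SKOV3 parental cells (12.6%) and from 4 to 2 higher in Hey against SKOV3 PGCCs (7.66%). Quantile normalization and leaving out mitochondrial genes each gave 5 higher in Hey PGCCs against parental cells. A pseudocount of 0.1 gave 2 higher in SKOV3 PGCCs against parental cells and 1 lower in Hey against SKOV3 PGCCs. Median ratios gave 3 lower in SKOV3 PGCCs against daughter cells, and median ratios, quantile normalization and the removed GC trend each gave 1 lower in Hey against SKOV3 parental cells. The removed trend gave 0 higher in SKOV3 PGCCs against parental cells and 1 lower in Hey against SKOV3 PGCCs. Apart from the thresholds, which change by construction, the cause was not tested.
Of the counts of the other pathway lists, 626 stayed within 1.5 times and 184 did not: 32 with the GC trend removed, 40 at 1.5-fold, 36 at 3-fold, 21 after quantile normalization, 19 with median ratios, 15 with the pseudocount of 0.1, 12 without mitochondrial genes and 9 at the higher mean TPM.

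Of the single values of the 10 genes, 745 kept their side of the threshold, 36 crossed to the called side and 29 to the other. The 745 include 90 values with no filter and 90 with a mean TPM of at least 5, which could not change. Several values that were not called changed sign. REL in SKOV3 daughter against parental cells, at 0.27, was -0.088 after quantile normalization. With the GC and length trend removed, NFKBIE in SKOV3 PGCCs against parental cells went from 0.32 to -0.44 and RELB from 0.89 to -0.084. That step also took NFKB2 from -0.64 to 0.52 and RELA from -0.92 to 0.12 between Hey and SKOV3 PGCCs. Median ratios shifted the median of all genes by -0.16 in SKOV3 daughter against parental cells and by 0.27 to 0.36 between the lines. limma gave 0 of the 10 genes an adjusted p under 0.05 in each of 5 other fits, with smallest adjusted p values from 0.824 to 1. The line term of the limma fit compares the states within each line, and without this term 0 of the 10 genes also had an adjusted p under 0.05 in limma. Leaving out a line leaves no residual degrees of freedom, so this was not fitted. The table holds no counts, so the depth behind each gene is unknown.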

Other observations

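The genes most like the mean log2(TPM + 1) of the 10 genes over the 6 libraries were SLCO2B1 with a Pearson r of 0.99, AC009404.1 with 0.99, UBE2D3-AS1 with 0.99, RIT1 with 0.98 and IFIT3 with 0.98, out of 12141 genes compared. The points are 3 states of 2 lines, 1 library each, and r is given as a description of those libraries. RIT1, a small GTPase of the Ras family, measured 19.4, 34.1 and 20.9 TPM in Hey parental cells, PGCCs and daughter cells and 26.7, 30.6 and 43.5 TPM in SKOV3. IFIT3, an interferon-induced gene, measured 7.88, 15.8 and 7.78 TPM in Hey and 9.12, 11.8 and 17.7 TPM in SKOV3. The 3 others stayed below 5 TPM in every library.

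The κB consensus was also searched in the windows of the other pathway genes. It was found in 9 of 19 target genes, 3 of 3 other IκB family genes, 3 of 12 negative regulators, 2 of 11 adaptors and ubiquitin ligases, and 1 of 10 IKK subunits and kinases that have a window, beside 13.3% of the 27305 genes with a window.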
